A study of Mus musculus with 6 samples.

Results

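A set of 10 genes that encode plasma membrane amino acid transporters, known from other work as targets of the transcription factor ATF4, was followed in mouse cells with and without metformin. It comprised Slc3a2, Slc7a5, Slc7a11, Slc1a4, Slc1a5, Slc7a1, Slc7a3, Slc38a1, Slc38a2 and Slc6a9, found through the symbols of the 55401 Ensembl genes measured. The set was selected partly on the rise of Slc1a4 and Slc3a2 in these same libraries, so that all metformin and control values of the 10 genes are given as a description, with no test. Whether ATF4 acts on these genes in these cells was not measured.

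RNA-seq had been done on 3 control libraries and 3 libraries from cells given 1 μM metformin, an anti-diabetic biguanide, for 24 h. The groups follow the treatment that the labels give for each sample, since a protocol note shared by all 6 samples, controls included, names metformin. All 6 came from cultures of C57BL/6 mouse cells that the labels call female germline stem cells (FGSCs), described as a single line, at a passage above 20. Both groups grew on inactivated STO fibroblast feeders in medium with serum, growth factors, added non-essential amino acids, L-glutamine, pyruvate and β-mercaptoethanol. The labels do not say whether repeats were separate cultures, so the spread between libraries may be technical.

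Values were FPKM, fragments scaled to gene length and to library size, with an estimated depth of 13400000 to 14000000 fragments per library. Of the 6 germ cell markers that the study names, Dazl, Dppa3 and Pou5f1 were listed at 0 in all 6 libraries, and the other 3 summed to 0.33 to 1.38 FPKM. The labelled germ cell identity was thus not seen in these marker levels. By contrast, the paper reported RT-PCR products for all of these germ cell markers in its cultured cells, and MVH protein by immunofluorescence. The reason for this difference was not tested. The 9 feeder fibroblast markers summed to 0.42 to 0.69 FPKM in the control group and 0.48 to 0.59 FPKM with metformin, with Lum at 0 throughout. All 14 blood cell markers reached a mean of 1 FPKM, among them Ptprc (CD45) and the mast cell protease gene Cpa3. The 14 summed to 1110 to 1140 FPKM in the control group and 1090 to 1120 FPKM with metformin, 8 with a higher and 6 with a lower group mean, and their part in the transporter values was not tested. In bulk cultures, a change in the mix of cells and a change of RNA per cell cannot be told apart.

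Cells take up amino acids through carriers of several families. The heavy chain encoded by Slc3a2, CD98 or 4F2hc, brings light chains such as LAT1 (Slc7a5) and xCT (Slc7a11) to the cell surface, where they exchange one amino acid for another. ASCT1 (Slc1a4), ASCT2 (Slc1a5), SNAT1 (Slc38a1), SNAT2 (Slc38a2) and the glycine transporter GlyT1 (Slc6a9) take up neutral amino acids with sodium, whereas CAT1 (Slc7a1) and CAT3 (Slc7a3) carry arginine and lysine. When amino acids run short or eIF2α is phosphorylated for another reason, translation of ATF4 increases, and ATF4 with a C/EBP partner binds composite elements (CARE) near genes for amino acid uptake and synthesis.

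Promoter windows of RefSeq on GRCm38.p6, from 250 bases before to 50 after an annotated start, were found for 6 of the 10 genes, namely Slc3a2, Slc7a11, Slc1a4, Slc7a1, Slc38a2 and Slc6a9, with 9 windows in all. The CARE core TGATGNAA was searched on both strands. It occurred in 3.97% of all 32851 windows, and in those of Slc7a11 and Slc1a4 among the 6 genes. Both genes carried the narrower form TGATGCAA, found in 0.895% of all windows. Slc7a11 held it at -66 to -59 on the gene's strand and again at -47 to -40 on the other strand. At least 2 CARE matches were present in 0.0700% of all windows. Slc1a4 held it once on the other strand, at -4 to 4, across the start itself (position 1, with no position 0). The windows of Slc7a11 and Slc1a4 are printed because they hold these matches, and that of Slc3a2 because the set was chosen partly by that gene and its window held none. Each runs 5′ to 3′ on the gene's strand, the minus strand, from 150 bases before to 20 bases after the start, with CARE matches in capitals.
Slc7a11, chr3:50443594-50443763: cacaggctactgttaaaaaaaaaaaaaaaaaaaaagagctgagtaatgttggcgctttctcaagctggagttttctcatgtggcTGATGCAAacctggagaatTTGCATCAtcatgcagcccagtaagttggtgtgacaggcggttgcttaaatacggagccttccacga
Slc1a4, chr11:20332694-20332863: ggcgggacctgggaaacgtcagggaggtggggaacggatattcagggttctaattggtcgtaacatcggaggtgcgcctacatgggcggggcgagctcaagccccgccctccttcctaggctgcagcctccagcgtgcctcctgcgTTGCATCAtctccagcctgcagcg
Slc3a2, chr19:8713878-8714047: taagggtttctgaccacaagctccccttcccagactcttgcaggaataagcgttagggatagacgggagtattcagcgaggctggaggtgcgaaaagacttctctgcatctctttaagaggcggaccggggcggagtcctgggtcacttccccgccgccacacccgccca

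The window of Slc3a2 surrounds a start that lies inside the gene as listed in the deposited table, from 8706882 to 8723369 of chromosome 19. A match is a stretch of letters and not a measured binding site, and no match says only that the letters are absent from the window. The motif TGACNNNGC, a core of the antioxidant response element bound by NRF2, lay in 12.4% of all windows and in 4 of the 9 windows here, namely 1 of 2 for Slc7a1, that of Slc38a2 and 2 of 3 for Slc6a9. It did not lie in the window of Slc7a11, a gene known as a target of NRF2. The cAMP response element TGACGTCA (1.79% of all windows) and the E-box CACGTG (7.15%), at which MYC binds, were found in no window of the 6 genes. No window of the 6 genes held both a CARE match and a match to one of these other motifs.

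**Figure D1:**
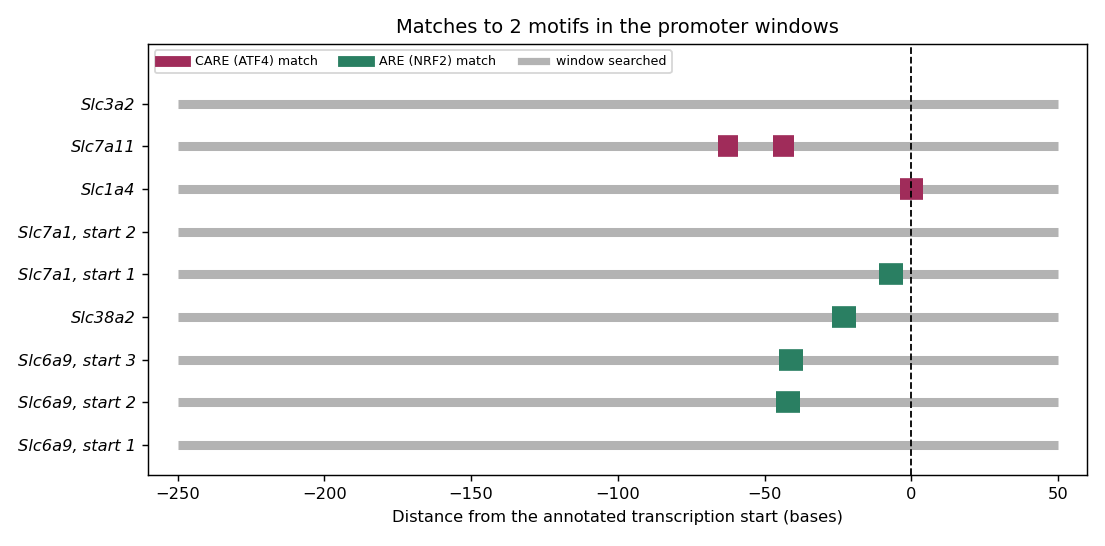
Positions of CARE (crimson) and antioxidant response element (green) matches in the 9 promoter windows of 6 transporter genes, in bases from the annotated start (dashed line). Slc7a11 has 2 CARE matches upstream of its start and Slc1a4 has 1 across it, whereas the other motif lies in 1 of 2 windows of Slc7a1, in that of Slc38a2 and in 2 of 3 windows of Slc6a9.

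Levels in the control group spanned a wide range. FPKM is per length, so levels are set side by side between genes, but they depend on the gene lengths used, which are not given. Slc7a5 was highest with 142 ± 4.88 FPKM (SD, n = 3), followed by Slc3a2 with 97.9 ± 3.10, Slc1a5 with 71.7 ± 1.05, Slc7a1 with 40.6 ± 0.611 and Slc38a2 with 33.7 ± 0.101 FPKM. Slc1a4 with 19.4 ± 0.686 FPKM and Slc38a1 with 18.9 ± 0.521 FPKM came next, and their ranges overlapped. Slc6a9 had 4.41 ± 0.160, Slc7a11 1.41 ± 0.0404 and Slc7a3 0.243 ± 0.0208 FPKM. Every other pair of neighbours in this order was apart in all 3 control libraries. With metformin the order was the same, but Slc1a4 (22.99 to 24.75 FPKM) was now apart from Slc38a1 (18.60 to 19.27 FPKM).

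Of the genes in the table, 10661 averaged 1 FPKM or more over the 6 libraries and were tested. Among them the control level of Slc7a5 stood at percentile 97.1 and that of Slc7a11 at percentile 5.42. Slc7a11, with a mean of 1.59 FPKM, passed this limit in both groups, and Slc7a3, with a mean of 0.247 FPKM, was the single member below it. From exon lengths in GENCODE M1, the values of Slc7a3 stood for an estimated 9 to 17 fragments per library and those of Slc7a11 for 206 to 307. Slc3a2 stood for 3742 to 4604 fragments, Slc1a4 for 1028 to 1360 and Slc6a9 for 301 to 375 by the same estimate.

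The 10 genes supplied most of the FPKM summed over the plasma membrane amino acid transporters examined, which were these 10, 8 genes related to the heavy and light chains and 31 of other families. Their share was 74.3% to 75.0% in the control libraries and 75.6% to 76.0% with metformin. Among the 39 other genes, 16 were listed at 0 in every library and 8 reached a mean of 1 FPKM. The highest of these were Slc7a8, which encodes the light chain LAT2, with a mean of 52.3 FPKM, the taurine transporter gene Slc6a6 with 33.7 FPKM and Slc7a6, which encodes the light chain y+LAT2, with 28.9 FPKM.

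**Figure D2:**
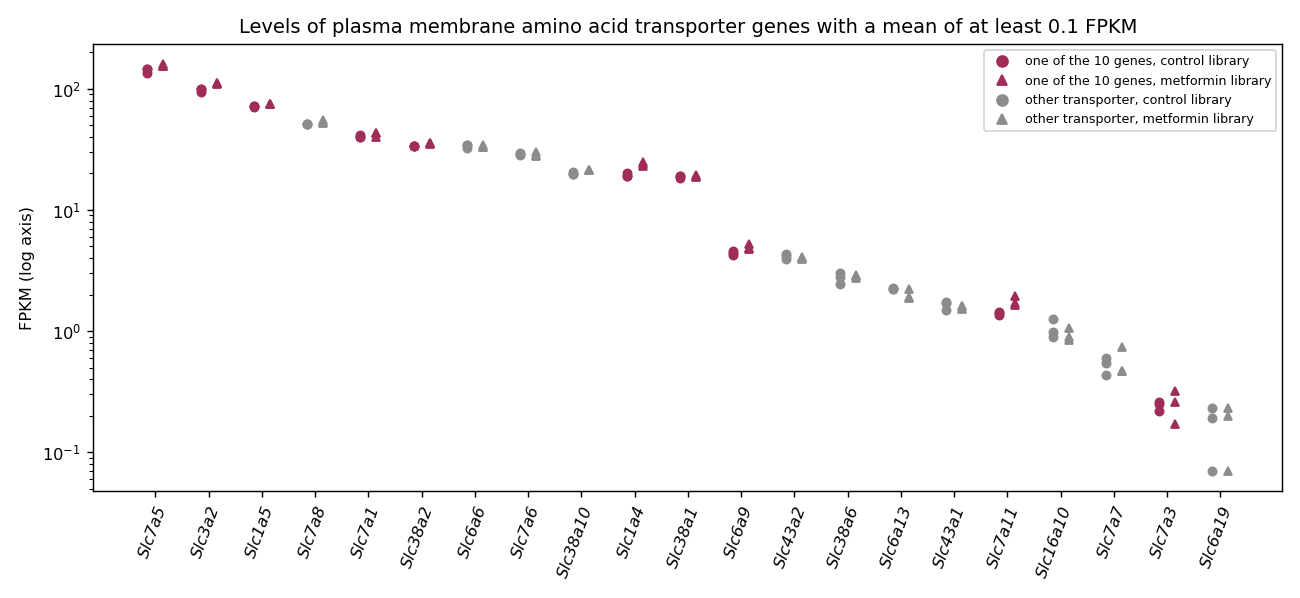
FPKM (log axis) in each library for the 21 plasma membrane amino acid transporter genes that reached 0.1 FPKM on average, in order of the control mean. Slc7a5, Slc3a2 and Slc1a5 (crimson, as are all of the 10 genes) lie above all other transporters, and Slc7a11 and Slc7a3 near the low end.

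Between the groups, the 9 members that reached 1 FPKM on average all had a higher group mean with metformin, and the libraries of the groups did not overlap for 7 of them. Over all 10661 genes tested, 52.3% had a higher mean with metformin, 8.89% had all metformin libraries above the controls and 8.10% had all of them below. Since the set was chosen partly by this contrast, nothing is read from the comparison of these shares. The difference of the means on the scale of log2(FPKM + 1) had a median of 0.135 over the 9 genes, from 0.0127 for Slc38a1 to 0.282 for Slc1a4, beside a median of 0.00411 over all genes tested. This scale understates differences of genes at low FPKM.

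**Figure D3:**
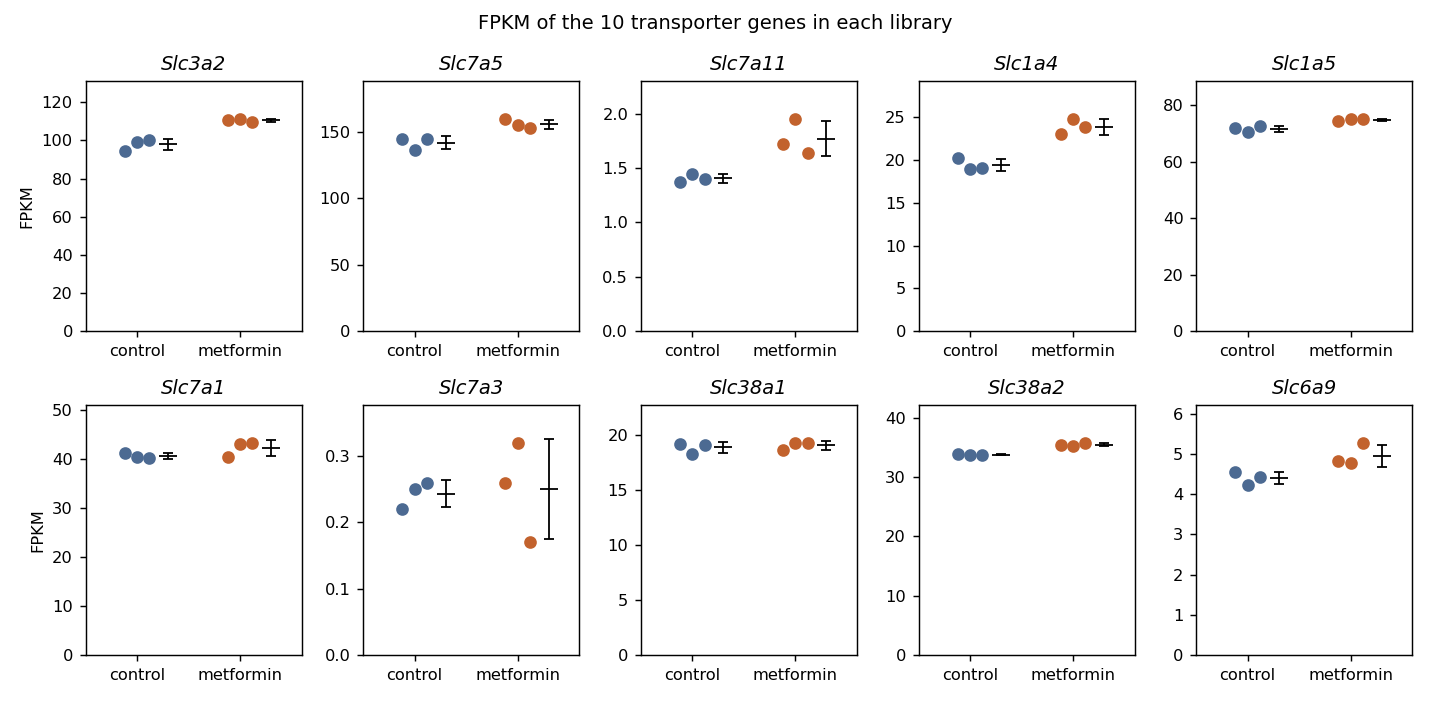
FPKM of each of the 10 genes in the 3 control (blue) and 3 metformin (orange) libraries, with the mean and SD of each group in black and axes that start at 0. Points of the groups are apart for Slc3a2, Slc7a5, Slc7a11, Slc1a4, Slc1a5, Slc38a2 and Slc6a9 and overlap for Slc7a1, Slc7a3 and Slc38a1.

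Slc1a4, the gene of ASCT1, an exchanger of serine, alanine, cysteine and threonine, occupies 20302180 to 20332713 of chromosome 11 (GRCm38, as for all genes here, minus strand). Its libraries gave 20.22, 18.98 and 19.09 FPKM in control repeats 1 to 3 and 22.99, 24.75 and 23.79 FPKM in metformin repeats 1 to 3. The lowest metformin library was thus 2.77 FPKM above the highest control library. The metformin mean was 1.23 times the control mean, a log2 difference of 0.282 (SE 0.0391, limma). This difference stood at percentile 98.6 among the genes tested. Since the set was chosen partly for the rise of this gene, nothing is read from that rank. With any 1 library left out, this difference ranged from 0.256 to 0.31.

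Its relative Slc1a5, the gene of the glutamine carrier ASCT2, occupies 16781340 to 16798274 of chromosome 7 (plus strand) and had a higher level but a smaller difference. Its FPKM was 72.13, 70.54 and 72.51 in the control libraries and 74.27, 75.08 and 75.00 with metformin. The groups were apart by 1.76 FPKM, with a log2 difference of 0.0595 (SE 0.0213). The ratio of Slc1a4 to Slc1a5 within a library was 0.263 to 0.280 in the control group and 0.310 to 0.330 with metformin.

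Slc3a2, the common heavy chain, is on the minus strand of chromosome 19 and showed 94.41, 99.23 and 100.19 FPKM in the control libraries. With metformin it showed 110.80, 111.17 and 109.65 FPKM, which were close to each other and at least 9.46 FPKM above any control. The metformin mean was 1.13 times the control mean, a log2 difference of 0.173 (SE 0.0268). The ranges on leaving out 1 library were 0.147 to 0.190.

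Slc7a5, the gene of LAT1, which brings in leucine and other large neutral amino acids, occupies 121881150 to 121907694 of chromosome 8 (minus strand). It had 144.61, 136.03 and 144.34 FPKM in the control libraries and 159.26, 154.59 and 152.87 FPKM with metformin. The groups were apart by 8.26 FPKM, and the metformin mean was 1.10 times that of the control group, a log2 difference of 0.135 (SE 0.0302). Control repeat 2 was the lowest library of its group for this gene. The 1 gene that overlaps Slc7a5, on the opposite strand, was listed at 0 in every library.

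Slc7a11, the gene of xCT, which takes up cystine in exchange for glutamate and so feeds glutathione synthesis, occupies 49892526 to 50443614 of chromosome 3 (minus strand). It was low in all libraries, with 1.37, 1.45 and 1.4 FPKM in the control group and 1.72, 1.95 and 1.64 FPKM with metformin. The metformin mean was 1.26 times the control mean, the largest ratio among the 10 genes, and the groups were apart by 0.190 FPKM. The log2 difference was 0.201 (SE 0.0768) with a pseudocount of 1 and 0.309 with a pseudocount of 0.1. The 5 genes that overlap Slc7a11 on either strand had means of at most 0.0033 FPKM.

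Heavy and light chains were set side by side as FPKM within each library. The light chains of the Slc3a2 family (Slc7a5, Slc7a6, Slc7a7, Slc7a8, Slc7a10 and Slc7a11) summed to 218 to 227 FPKM in the control group and 238 to 244 FPKM with metformin. Their sum was 2.20 to 2.40 times the heavy chain in the control libraries and 2.15 to 2.21 times with metformin, ranges that overlap. Slc7a5 made up 62.4% to 64.0% of the light chain sum in the control group and 64.3% to 65.2% with metformin. The ratio of Slc7a5 to Slc3a2 was 1.37 to 1.53 and 1.39 to 1.44 in the same order.

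Among the sodium-coupled carriers, Slc38a2, the gene of SNAT2 on chromosome 15 from 96687392 to 96699730 (minus strand), had the smallest spread. It had 33.81, 33.61 and 33.74 FPKM in the control libraries and 35.37, 35.24 and 35.73 FPKM with metformin, a log2 difference of 0.0700 (SE 0.0227). The gap between the groups was 1.43 FPKM, and the SD was 0.101 FPKM in the control group and 0.254 FPKM with metformin. An SD from 3 libraries is itself uncertain, so the gap is not judged against it. The values stood for an estimated 2096 to 2291 fragments per library. Its neighbour Slc38a1, the gene of SNAT1 from 96571418 to 96642913 on the same strand, overlapped between the groups. It had 19.20, 18.26 and 19.12 FPKM in the control libraries and 18.60, 19.27 and 19.23 FPKM with metformin. Without control repeat 2 its log2 difference turned from 0.0127 to -0.00926, and with any other library left out it lay between 0.00414 and 0.0284.

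Slc6a9, the gene of the glycine carrier GlyT1, occupies 117834506 to 117875198 of chromosome 4 (plus strand). It had 4.56, 4.24 and 4.42 FPKM in the control libraries and 4.82, 4.77 and 5.28 FPKM with metformin. The groups were apart by 0.210 FPKM, with a log2 difference of 0.139 (SE 0.0533). Metformin repeat 3 was the highest library, and without it the difference was 0.1. The 3 genes that overlap it on the opposite strand had means of at most 0.05 FPKM.

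The groups overlapped for both cationic carriers. Slc7a1, the gene of CAT1 and of the receptor for ecotropic mouse retroviruses, occupies 148327410 to 148399904 of chromosome 5 (minus strand). It had 41.29, 40.32 and 40.16 FPKM in the control libraries and 40.36, 43.09 and 43.30 FPKM with metformin. Metformin repeat 1 lay within the control range and the other metformin repeats above it, for a log2 difference of 0.0559 (SE 0.0332), which was 0.0877 without metformin repeat 1. Slc7a3, the gene of CAT3 on the X chromosome from 101079210 to 101086020, had 0.22, 0.25 and 0.26 FPKM in the control libraries and 0.26, 0.32 and 0.17 FPKM with metformin. Its group means were 0.243 and 0.25 FPKM.

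**Figure D4:**
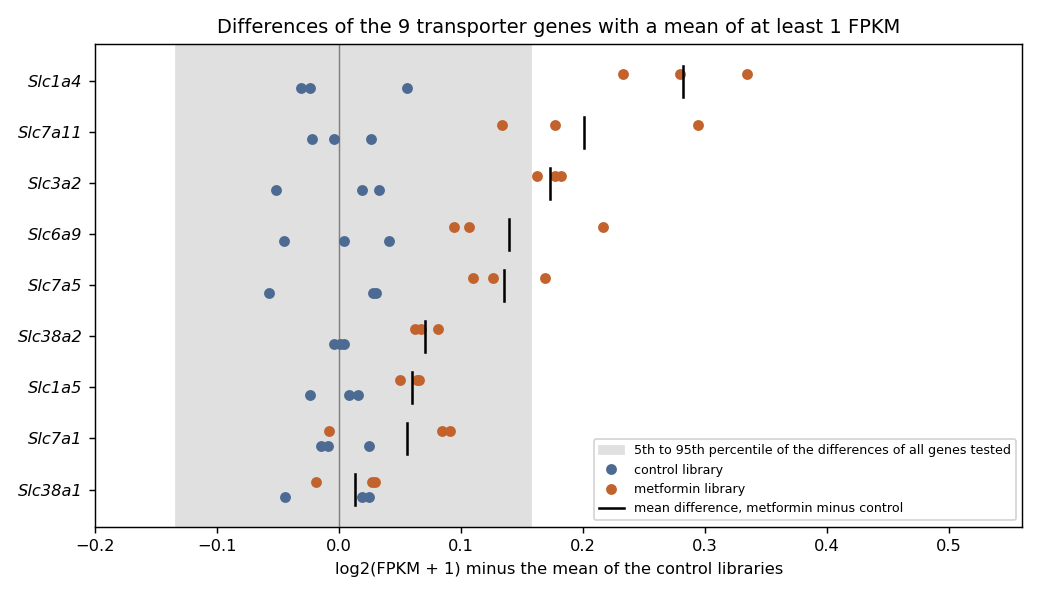
Each library's log2(FPKM + 1) minus the control mean for the 9 genes that reached 1 FPKM on average, with the mean difference as a black line and the 5th to 95th percentile of all genes' differences in grey. The mean differences of Slc1a4, Slc7a11 and Slc3a2 lie above the grey band, which ends at 0.157, and Slc38a1 lies near 0. The set was chosen partly for the rise of Slc1a4 and Slc3a2, so nothing is read from places outside the band.

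Rescaling each library to the same sum, quantile normalization and centring on the median left all 9 genes higher with metformin and 7 apart. Without control repeat 2, 8 of the 9 genes were higher, Slc38a1 being the exception. Within groups, control repeat 1 was above its group mean for 7 of the 9 genes and control repeat 2 for 2 of them, and metformin repeat 1 for 2 of them, with deviations of at most 0.0924 on the log2 scale.

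The limma fit and its Benjamini-Hochberg adjustment covered all 10661 genes, the 9 members included, but p values are given only for genes that are no member. Of all genes tested, 3 (Chac1, Ddit3 and Trib3), or 0.0281%, had an adjusted p under 0.05, and all of these were higher with metformin. At an unadjusted p under 0.05 there were 643 higher and 513 lower. Of the 8 other genes of heavy and light chains, 2 were tested, and of the 31 transporters of other families, 6 were tested. None of the 8 tested had an adjusted p under 0.05, and at an unadjusted p under 0.05 there were 2, Slc7a8 and Slc38a10, both higher with metformin. Slc7a8 had 50.92, 51.04 and 51.08 FPKM in the control libraries and 54.95, 53.30 and 52.66 with metformin (adjusted p = 0.39 in limma). Slc38a10, a gene of the SNAT family, had 19.83, 19.92 and 20.64 FPKM and then 21.46, 21.18 and 21.25 FPKM (adjusted p = 0.412 in limma). Slc7a6 (adjusted p = 0.948 in limma) and Slc6a6 (adjusted p = 0.992 in limma) had overlapping groups. The median log2 difference was 0.0307 for the first list and -0.0187 for the second.

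Regulators of the transporters were listed as 21 genes, of which 19 were tested, 14 with a higher and 5 with a lower mean, and a median log2 difference of 0.0433. Trib3 and Ddit3, 2 of the 3 genes called over the whole table, were in this list and were the genes of it that passed. Trib3, a pseudokinase that restrains ATF4, had 6.33 to 6.92 FPKM in the control group and 15.8 to 16.4 with metformin (adjusted p = 0.000127 in limma). Ddit3, which encodes the factor CHOP, had 6.90 to 7.77 and 12.4 to 13.5 FPKM (adjusted p = 0.00453 in limma). Atf4 itself had 200.29, 207.40 and 202.93 FPKM in the control libraries and 238.02, 232.99 and 221.80 FPKM with metformin. Its libraries did not overlap, and its log2 difference of 0.181 (SE 0.0295) had an adjusted p = 0.243 in limma. Myc, whose product is known to raise transcription of several of these carriers, had 171 to 176 FPKM and 186 to 190 FPKM (adjusted p = 0.283 in limma). Nedd4, a ubiquitin ligase, had 66.7 to 69.0 and 65.3 to 67.7 FPKM (adjusted p = 0.735 in limma). Ppp1r15a, the regulatory subunit of an eIF2α phosphatase, had 9.04 to 10.3 and 12.1 to 12.7 FPKM (adjusted p = 0.223 in limma).

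A further list held 24 ATF4 targets that are no transporters, of which 20 were tested, 18 with a higher and 2 with a lower mean with metformin. The median log2 difference was 0.0999, and 3 genes passed over the whole table, Chac1 in addition to Trib3 and Ddit3, while 15 had an unadjusted p under 0.05, all of these higher. Chac1, whose product degrades glutathione, had 2.28 to 2.79 FPKM in the control group and 6.57 to 7.26 with metformin (adjusted p = 0.00197 in limma). The 3 genes of this list with the highest mean, which act in serine and glycine synthesis, did not pass. Shmt2 had 153.59 to 162.37 FPKM in the control group and 162.83 to 163.92 FPKM with metformin (adjusted p = 0.576 in limma). Phgdh had 147.22 to 152.18 and 152.04 to 158.64 FPKM, which overlap (adjusted p = 0.412 in limma). Psat1 had 125 to 128 FPKM and 131 to 133 FPKM (adjusted p = 0.384 in limma). This list was written with the response of such genes in these libraries already known and is no independent evidence of its direction. CARE matches were present in the windows of 7 of the 22 of these genes that had one, and in those of Slc7a7 alone among the 28 other transporter genes with a window. Over all 27025 genes with a window, 1219 (4.51%) had a match. The 22 genes were listed as known ATF4 targets, so nothing is read from these counts.

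Profiles over the 6 libraries were compared by the root mean square difference of log2(FPKM + 1) after the control mean was subtracted. Among the genes nearest to Slc1a4 were Tsc22d3 (0.0319) and Ddit4 (0.0363), where the value is that distance. Ddit4 had 25.7 to 28.0 FPKM in the control libraries and 31.5 to 35.0 FPKM with metformin. Nearest to Slc3a2 were Shisa5 (0.0123), Cenpv (0.0210) and Ltbp4 (0.0243). Shisa5 had 18.0 to 19.3 FPKM in the control group and 20.9 to 21.4 FPKM with metformin.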

How the data were processed

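RNA-seq of 3 control and 3 metformin libraries was analysed. The authors deposited FPKM values for each gene and library, rounded to 2 decimals and with positions of GRCm38. The processing notes of the submitters name HISAT2, DESeq2 and mm9, with no role given, and the counting step and use of strand are not given in the sources used here. The labels name a stranded KAPA kit and the methods a VAHTS kit. The 10661 genes that averaged 1 FPKM or more were compared as log2(FPKM + 1) with limma 3.58.1 in R 4.3.3 (lmFit, eBayes with a trend, two-sided, Benjamini-Hochberg), because FPKM hold no counts for a count test. A threshold of 0.05 was used. SE values come from the same fit. The members and the lists were chosen with earlier results of these data known, and lists stem from general knowledge. Beyond the 10 members, genes were named if called, among the 3 highest or the 3 with the smallest p of a list, as markers, or as the 3 nearest profiles of Slc1a4 and Slc3a2. Some genes that this rule names are not reported here.

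Depth was estimated from single-exon genes shorter than 400 bp, whose low FPKM times length lay within 0.1 of a whole multiple of the value of a single fragment, for 100% of them. Fragment numbers of members rest on exon lengths of GENCODE M1 and are approximate. Symbols were matched for 32589 genes by Ensembl identifier, with 3 list genes matched through RefSeq synonyms. No pair of libraries shared more than 1.48% of values. The fit was tested on simulated data. Python 3.11.15 and matplotlib 3.10.9 were used for the rest. Other settings tried were another pseudocount (0.1), another limit (10 FPKM) or none, other scalings (equal sums, quantiles, median), eBayes without its trend, a replicate block and leaving out each library.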

Additional observations from a re-analysis of the deposited data

How the results depend on the processing

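The number of genes called higher with metformin was 3 and stayed at 2 to 4 under every alternative, whereas the number called lower was 0, became 3 when all 22809 genes above 0 in a library were tested (4 calls were added in all, SNORA24 and 3 genes with no symbol), and was 0 to 1 with a library left out (SCARNA14 without control repeat 3 and SNORD18 without metformin repeat 3). The median log2 difference of the members fell from 0.135 to 0.07 at a mean of at least 10 FPKM, where Slc7a11 and Slc6a9 drop out and 7 members are left. The number of members higher was 8 to 9 with a library left out, and that of members apart was 7 to 9. Leaving out a library can only keep or raise the number apart, so this last range is no check of it. No transporter outside the set was called under any of the 14 alternatives. Repeat numbers did not pair the libraries, as deviations of libraries with the same number correlated at -0.0317, 0.0181 and 0.0479 across genes. A fit with the replicate block called 2 genes higher, and Ddit3 had adjusted p = 0.0833 in limma with it. The smallest exact permutation p that 3 against 3 libraries allow is 0.1. Counting limits precision for Slc7a3, Slc7a11 and Slc6a9.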

Other observations

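Carriers inside the cell and enzymes that use the imported amino acids were tested in the same limma fit. Of 10 genes listed for carriers of the lysosome membrane, 6 were tested, 5 with a higher and 1 with a lower mean with metformin, and a median log2 difference of 0.0734. None had an adjusted p under 0.05 in limma. At an unadjusted p under 0.05 there was 1, Slc38a7, a glutamine carrier, with 6.57, 7.31 and 6.78 FPKM in the control libraries and 7.86, 8.19 and 7.40 FPKM with metformin. Of 12 genes for mitochondrial carriers, 9 were tested, and 0 passed in limma at an adjusted p under 0.05. At an unadjusted p under 0.05 there was 1 higher, Slc25a39, which carries glutathione into mitochondria, and 1 lower, Slc25a15, the ornithine carrier. Slc25a39 had 84.3 to 88.7 FPKM in the control group and 91.7 to 96.7 FPKM with metformin (adjusted p = 0.32 in limma). Slc25a15 had 10.9 to 11.4 FPKM and 10.1 to 10.5 FPKM in the same order (adjusted p = 0.39 in limma).

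Of 19 genes for enzymes that use the carried amino acids, 14 were tested, 9 with a higher and 5 with a lower mean, and 0 passed in limma at an adjusted p under 0.05. At an unadjusted p under 0.05 there was 1 in each direction. The higher one, Asns, the asparagine synthetase gene, had 61.5 to 62.6 FPKM in the control group and 64.4 to 66.8 FPKM with metformin (adjusted p = 0.363 in limma).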
